A study of Mus musculus with 12 samples.

Results

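Oligodendrocyte lineage and myelin genes were followed across 12 arrays of GL261 tumour masses from mouse brain. The set was named by function: 34 genes for myelin proteins, myelin lipid enzymes, oligodendrocyte connexins, lineage transcription factors and progenitor markers. Of these, 32 had a probe set annotated to that symbol alone, out of 22180 genes measured that way. Enpp2, which makes lysophosphatidic acid, had no probe set listed under its symbol, and the probe set of the iron carrier Trf also carried Srprb, so both were left out. Bcas1 had a second, dimmer probe set, and the brighter was used.

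GL261 is a mouse glioma line that grows in immunocompetent C57BL/6 mice. The cells were placed in the brains of male mice 8 weeks old, and total RNA came from the tumour mass on day 16. There were 4 groups of 3 arrays. TMZ mice had temozolomide, a DNA alkylating agent, intraperitoneally at 30 mg/kg; Anti-PD-1 mice had an antibody against an inhibitory T cell receptor intravenously at 10 mg/kg, with 2 injections a week; Combination mice had both agents; and Control mice formed the comparison group. What the Control mice received, the days of dosing, and whether each array came from a separate mouse are not stated in the labels, so p-values here measure the spread between arrays, which may be technical. All groups share the same implanted line and host strain, and the labels do not give the share of surrounding brain in each mass.

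Oligodendrocytes wrap axons of the central nervous system in myelin, a stack of membrane rich in galactolipids and held together by a few abundant proteins. They arise from progenitors that divide, pass through a committed and newly myelinating state, and then mature under transcription factors such as Olig1, Nkx2-2, Sox10 and Myrf. In a glioma mass these transcripts can come from brain tissue around or inside the tumour, and some early lineage genes are also active in glioma cells.

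The deposited values are log2 RMA signals, in which a difference of 1 is a doubling of signal. Signals of different probe sets are not on one scale, so each gene is compared only with itself across arrays. Array medians lay between 5.06 and 5.12, and pairwise correlations over all probe sets between 0.984 and 0.991. The first principal component held 26.6% of the variance. On it Control replicates 1 and 2 lay at 20.1 and 26.4, whereas Control replicate 3 lay at 1.28, among treated arrays that ranged from -13.9 to 4.10. Because results against Control depend on those arrays, values against Control replicate 3 alone are also given for the set, for the genes lower at an unadjusted p, and for the lists of other genes. In a bulk sample, fewer cells of a type and less RNA per cell cannot be told apart.

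None of the 32 genes passed limma with Benjamini-Hochberg adjustment over 22180 genes at 0.05 in any comparison, nor in the F test over all 4 groups. The background share of genes called was 0.0992% for TMZ against Control, 0.293% for Anti-PD-1 against Control and 0% for Combination against Control. It was 0% for Combination against TMZ, 0% for Combination against Anti-PD-1 and 0% for TMZ against Anti-PD-1. The interaction of both agents and the F test each called 0.00451%. At an unadjusted limma p under 0.05, 6 of the 32 (Sox10, Gpr17, Gjc3, Olig1, Bcas1 and Nkx2-2) were lower in TMZ than in Control. At that p, 3 (Sox10, Nkx2-2 and Gjc3) were lower in Anti-PD-1 and 5 (Sox10, Gpr17, Olig1, Gjc3 and Bcas1) were lower in Combination, and 0 were higher. The share of all genes lower at that p was 5.78% for TMZ, 6.79% for Anti-PD-1 and 6.18% for Combination. In the F test 2 genes, Sox10 and Gpr17, had an unadjusted limma p under 0.05. The shares of all genes at that p in the F test, or higher at that p against Control, are not given. Counts of those kinds, here and for the lists below, therefore have no background beside them. Groups that did not overlap at all were counted separately: 1 gene of the 32 was lower in every TMZ array than in every Control array (6.81% of all genes), 3 were lower in Anti-PD-1 (8.33% of all genes), and 6 were lower in Combination (7.82% of all genes). These 3 comparisons share the same Control arrays.

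In sign alone, 29 of the 32 genes were lower in TMZ than in Control, where 47.9% of all genes were lower. In Anti-PD-1, 20 were lower, against 47.6% of all genes. In Combination, 29 were lower, against 49.8% of all genes. The sizes were small: the median log2 difference was -0.09 in TMZ, -0.03 in Anti-PD-1 and -0.08 in Combination, while the medians over all genes were 0.0061, 0.0078 and 0.0005 in the same order. Against Control replicate 3 alone, 14 of 32 were lower in TMZ, 9 in Anti-PD-1 and 14 in Combination, with medians of 0.01, 0.05 and 0.02. In that fit the single Control array is assumed to vary as the other groups do.

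**Figure D1:**
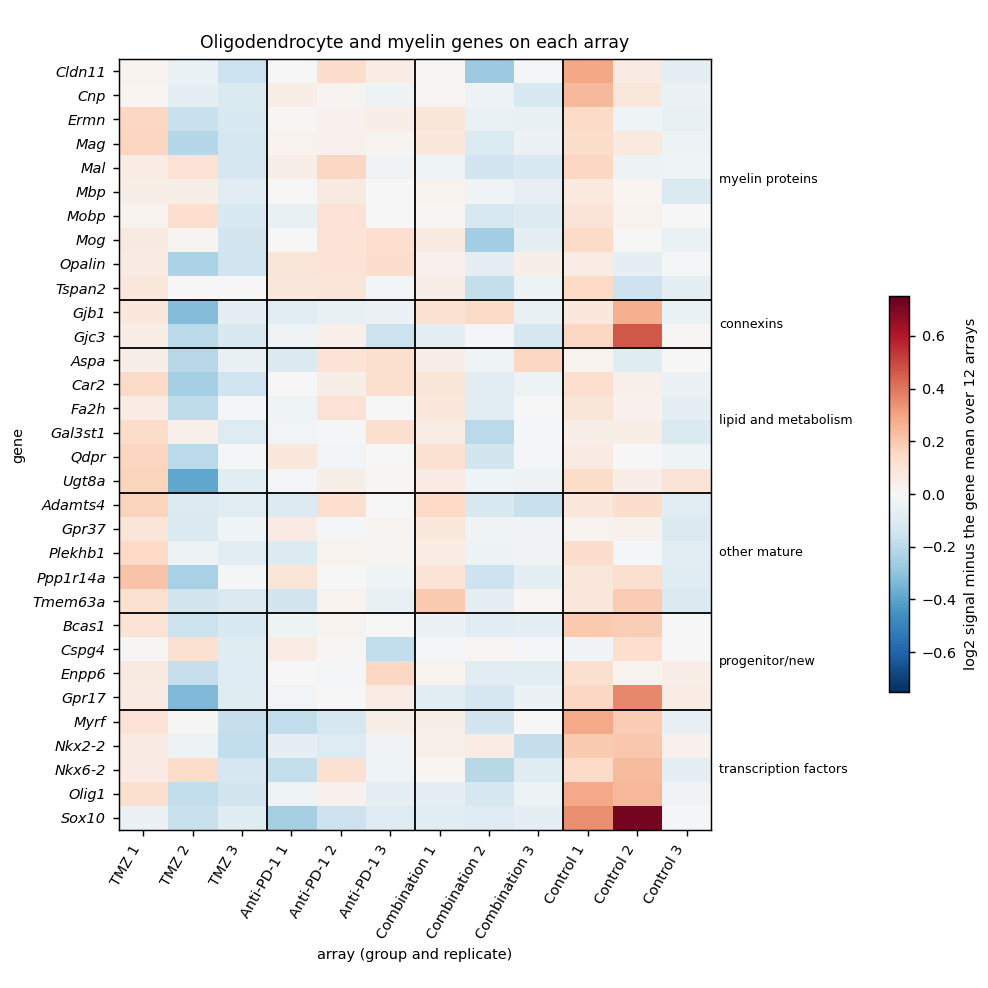
Log2 signal of each of the 32 genes (rows, grouped by role) minus its mean over 12 arrays (columns, TMZ, Anti-PD-1, Combination and Control, replicates 1 to 3). The darkest cell is Sox10 in Control replicate 2 at 7.72 log2, and the TMZ replicate 2 column is the lowest of all arrays for 17 genes.

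Of the 32 genes, the transcription factor Sox10 lay farthest from Control in every treated group. Sox10, which acts with Myrf on myelin genes and is present throughout the lineage, had 6.96, 6.84 and 6.92 log2 in TMZ, 6.76, 6.85 and 6.91 in Anti-PD-1, 6.92, 6.91 and 6.94 in Combination, and 7.35, 7.72 and 6.99 in Control. All 9 treated arrays lay below all 3 Control arrays, which Sox10 shared with no other gene of the set and with 1.87% of all genes. Control replicate 3 stood only just above the treated arrays, and Control replicate 2 was far above every other array. Sox10 averaged 6.90 ± 0.06 in TMZ, 6.84 ± 0.07 in Anti-PD-1, 6.92 ± 0.02 in Combination and 7.36 ± 0.37 in Control (SD, n = 3 each).

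The Sox10 difference from Control was -0.45 ± 0.14 (SE) in TMZ, a 1.37-fold lower signal that missed the threshold (limma adjusted p = 0.252). It was -0.52 ± 0.14 in Anti-PD-1 (limma adjusted p = 0.128) and -0.44 ± 0.14 in Combination (limma adjusted p = 0.265). The outcome depended on single Control arrays. Without Control replicate 3 the Sox10 difference passed in all 3 comparisons, at -0.63 in TMZ (limma adjusted p = 0.0139), -0.70 in Anti-PD-1 (limma adjusted p = 0.00553) and -0.62 in Combination (limma adjusted p = 0.0187). Without Control replicate 2 it was -0.27, -0.33 and -0.25 in the same order and passed in none. Set against Control replicate 3 alone, Sox10 differed by -0.09 in TMZ, -0.15 in Anti-PD-1 and -0.07 in Combination. No SE is given there, because a single array shows no spread and the Control SD of Sox10 (0.37) exceeded the treated ones.

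Olig1, a basic helix-loop-helix factor of the lineage, had 9.00, 8.70 and 8.75 log2 in TMZ, 8.85, 8.92 and 8.81 in Anti-PD-1, 8.81, 8.76 and 8.85 in Combination, and 9.17, 9.14 and 8.86 in Control. Control replicates 1 and 2 were the 2 highest arrays, Control replicate 3 lay within the treated range, and only Combination did not overlap Control. The difference was -0.24 ± 0.10 in TMZ, -0.19 ± 0.10 in Anti-PD-1 and -0.25 ± 0.10 in Combination (SE; limma adjusted p = 0.389, 0.413 and 0.365). Nkx2-2, which acts as progenitors begin to differentiate, had 5.76, 5.67 and 5.52 in TMZ, 5.64, 5.61 and 5.68 in Anti-PD-1, 5.74, 5.76 and 5.52 in Combination, and 5.90, 5.90 and 5.74 in Control. Its Anti-PD-1 arrays were all below Control, and TMZ and Combination each overlapped Control replicate 3. Nkx2-2 was at -0.20 ± 0.08 in TMZ, -0.21 ± 0.08 in Anti-PD-1 and -0.17 ± 0.08 in Combination (SE; limma adjusted p = 0.411, 0.314 and 0.470).

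Myrf, the membrane-bound regulator that starts and keeps up myelin gene transcription, had 7.86, 7.76 and 7.58 log2 in TMZ, 7.57, 7.63 and 7.80 in Anti-PD-1, 7.80, 7.61 and 7.76 in Combination, and 8.04, 7.94 and 7.70 in Control. Every treated group overlapped Control through replicate 3, and against that array alone Myrf was at 0.04 in TMZ, -0.03 in Anti-PD-1 and 0.03 in Combination. Myrf differed by -0.16 ± 0.10 in TMZ, -0.23 ± 0.10 in Anti-PD-1 and -0.17 ± 0.10 in Combination (SE; limma adjusted p = 0.618, 0.370 and 0.563). Nkx6-2, a homeodomain factor of mature oligodendrocytes, was at -0.08 in TMZ, -0.14 in Anti-PD-1 and -0.20 in Combination. All 5 transcription factors were thus lower in sign in each treated group, with medians of -0.20 in TMZ, -0.21 in Anti-PD-1 and -0.20 in Combination. The 5 were averaged into one deviation per array. That mean was 0.06, -0.05 and -0.14 in TMZ, -0.14, -0.05 and -0.04 in Anti-PD-1, -0.01, -0.10 and -0.07 in Combination, and 0.25, 0.32 and -0.03 in Control. Control replicates 1 and 2 were high and Control replicate 3 lay within the treated range.

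**Figure D2:**
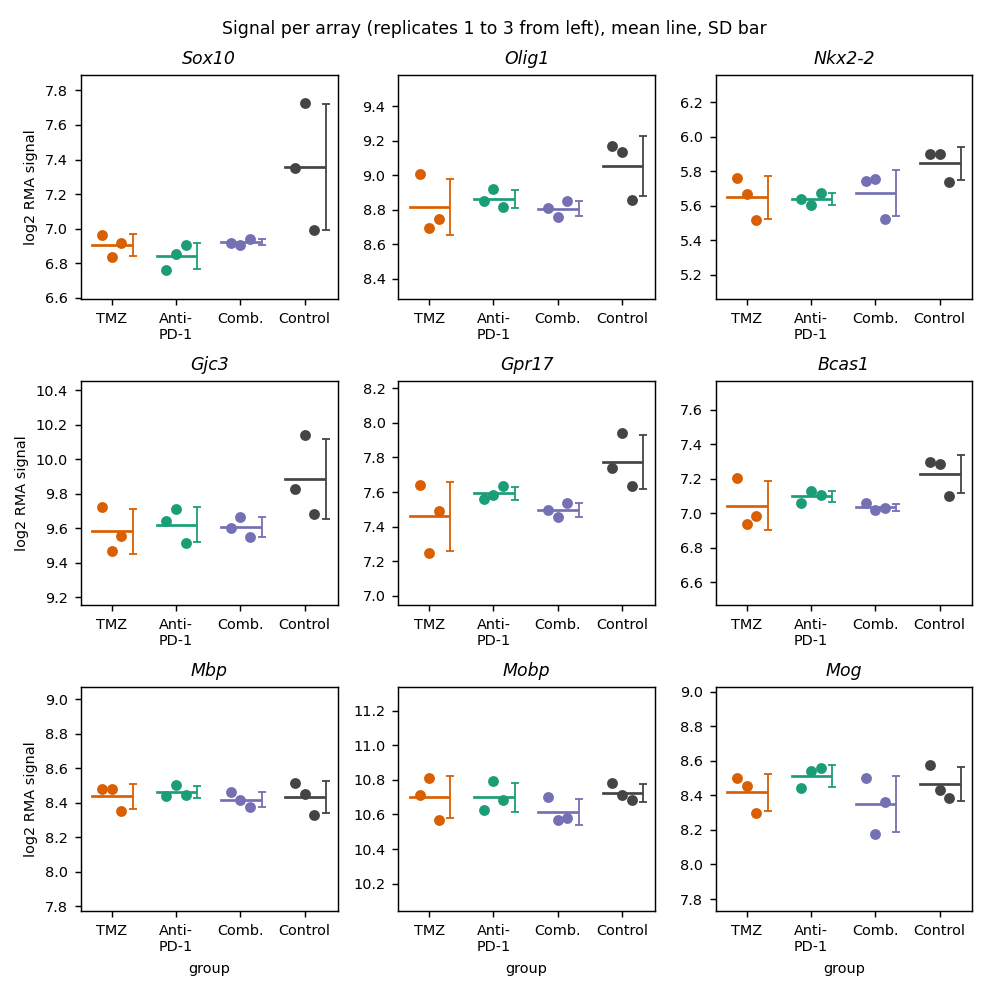
Log2 RMA signal of 9 genes in each array (points, replicates 1 to 3 from the left within a group; line, mean; bar, SD over 3 arrays). Control replicates 1 and 2 lie above Control replicate 3 for all 9 genes, and only for Sox10 do all treated arrays lie below all Control arrays.

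The progenitor and newly formed cell genes were lower in sign in all treated groups, 4 of 4 in each, at medians of -0.16 in TMZ, -0.10 in Anti-PD-1 and -0.15 in Combination. Gpr17, a receptor of committed precursors that is shut off on maturation, had 7.64, 7.25 and 7.49 log2 in TMZ, 7.56, 7.58 and 7.64 in Anti-PD-1, 7.50, 7.45 and 7.53 in Combination, and 7.74, 7.94 and 7.63 in Control. The 3 Combination arrays lay below Control, and in TMZ and Anti-PD-1 the highest array reached the level of Control replicate 3. Gpr17 differed by -0.31 ± 0.10 in TMZ, -0.18 ± 0.10 in Anti-PD-1 and -0.28 ± 0.10 in Combination (SE; limma adjusted p = 0.285, 0.466 and 0.335). Bcas1, a marker of oligodendrocytes that have just begun to myelinate, had 7.21, 6.94 and 6.98 in TMZ, 7.06, 7.13 and 7.10 in Anti-PD-1, 7.06, 7.02 and 7.03 in Combination, and 7.29, 7.29 and 7.10 in Control. Combination alone stood clear of Control. The Bcas1 difference was -0.18 ± 0.08 in TMZ, -0.13 ± 0.08 in Anti-PD-1 and -0.19 ± 0.08 in Combination (SE; limma adjusted p = 0.408, 0.500 and 0.381).

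Enpp6, a choline phosphodiesterase switched on in newly forming oligodendrocytes, had 6.36, 6.12 and 6.20 log2 in TMZ, 6.30, 6.29 and 6.45 in Anti-PD-1, 6.32, 6.21 and 6.22 in Combination, and 6.42, 6.32 and 6.35 in Control. Its Combination arrays lay just below the lowest Control array, and TMZ and Anti-PD-1 overlapped Control. Enpp6 was at -0.13 ± 0.08 in TMZ, -0.01 ± 0.08 in Anti-PD-1 and -0.11 ± 0.08 in Combination (SE). Cspg4, a proteoglycan on progenitors and also on pericytes, had 6.32, 6.42 and 6.21 in TMZ, 6.36, 6.32 and 6.12 in Anti-PD-1, 6.29, 6.32 and 6.30 in Combination, and 6.28, 6.43 and 6.30 in Control. The 4 groups lay within one another, and Cspg4 differed by -0.02, -0.07 and -0.03 (each ± 0.08 SE) in TMZ, Anti-PD-1 and Combination. The 95% confidence intervals for Cspg4 ran from -0.19 to 0.15 in TMZ, from -0.24 to 0.10 in Anti-PD-1 and from -0.21 to 0.14 in Combination.

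Of the 2 oligodendrocyte connexins, Gjc3 had 9.72, 9.47 and 9.56 log2 in TMZ, 9.64, 9.71 and 9.51 in Anti-PD-1, 9.60, 9.66 and 9.55 in Combination, and 9.83, 10.14 and 9.68 in Control. Control replicate 2 was highest and Control replicate 3 was reached by the top TMZ and Anti-PD-1 arrays, with Combination all below Control. Gjc3 differed by -0.30 ± 0.11 in TMZ, -0.26 ± 0.11 in Anti-PD-1 and -0.28 ± 0.11 in Combination (SE; limma adjusted p = 0.334, 0.322 and 0.365). Gjb1 was at -0.20, -0.16 and -0.03 in TMZ, Anti-PD-1 and Combination. Against Control replicate 3 alone, Gjc3, Gpr17, Olig1, Nkx2-2 and Bcas1 differed by between -0.18 and 0.01 over all 3 comparisons.

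None of the 10 structural proteins of myelin had an unadjusted limma p under 0.05 in any treated group. Mbp, the basic protein that pulls the cytoplasmic faces of compact myelin together, had 8.48, 8.48 and 8.35 log2 in TMZ, 8.44, 8.50 and 8.44 in Anti-PD-1, 8.46, 8.41 and 8.38 in Combination, and 8.51, 8.45 and 8.33 in Control. All 4 groups overlapped, and over the 12 arrays Mbp varied least of the set (SD 0.058, against a median of 0.12 over all genes). The Mbp difference was 0.01 in TMZ (95% confidence interval -0.14 to 0.15), 0.03 in Anti-PD-1 (-0.11 to 0.17) and -0.01 in Combination (-0.16 to 0.13). Mobp, a second small basic protein of compact myelin, had 10.71, 10.81 and 10.57 in TMZ, 10.63, 10.79 and 10.68 in Anti-PD-1, 10.70, 10.57 and 10.58 in Combination, and 10.78, 10.71 and 10.68 in Control. These too overlapped, with differences of -0.03 in TMZ (-0.19 to 0.14), -0.02 in Anti-PD-1 (-0.19 to 0.14) and -0.11 in Combination (-0.27 to 0.06).

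Mog, on the outermost face of the sheath, had 8.50, 8.46 and 8.30 log2 in TMZ, 8.44, 8.54 and 8.56 in Anti-PD-1, 8.50, 8.18 and 8.36 in Combination, and 8.58, 8.43 and 8.39 in Control. Combination replicate 2 was the lowest array and the groups overlapped. Mag, the adhesion molecule facing the axon, had 9.33, 8.96 and 9.03 in TMZ, 9.19, 9.20 and 9.19 in Anti-PD-1, 9.25, 9.07 and 9.13 in Combination, and 9.30, 9.24 and 9.13 in Control. The TMZ arrays spanned the whole range of Mag, replicate 1 highest and replicate 2 lowest. Cnp, an enzyme of the cytoplasmic channels in myelin, had 7.90, 7.81 and 7.78 in TMZ, 7.94, 7.90 and 7.84 in Anti-PD-1, 7.89, 7.85 and 7.77 in Combination, and 8.13, 7.97 and 7.84 in Control. Control replicate 1 was high for Cnp, and every treated group overlapped Control.

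Mog differed by -0.05 ± 0.09 in TMZ, 0.05 ± 0.09 in Anti-PD-1 and -0.12 ± 0.09 in Combination (SE). Mag was at -0.12 ± 0.09 in TMZ, -0.03 ± 0.09 in Anti-PD-1 and -0.08 ± 0.09 in Combination (SE). Cnp was at -0.15 ± 0.08 in TMZ, -0.08 ± 0.08 in Anti-PD-1 and -0.14 ± 0.08 in Combination (SE), and in TMZ it had the smallest adjusted p of these 3 genes (limma adjusted p = 0.488). Over all 10 structural genes, which also include the tight junction protein Cldn11, the proteolipid Mal, Opalin, the cytoskeletal protein Ermn and the tetraspanin Tspan2, 8 were lower in TMZ, 4 in Anti-PD-1 and 9 in Combination. Their median differences were -0.05 in TMZ, 0.02 in Anti-PD-1 and -0.09 in Combination. Cldn11 lay farthest from Control of the 10, at -0.15 in TMZ and -0.18 in Combination. Against Control replicate 3 alone Cldn11 was at 0.01 and -0.01, and Cnp at -0.01 and 0.00, in TMZ and Combination. No 95% interval of a structural gene reached below -0.38 in TMZ, -0.26 in Anti-PD-1 or -0.41 in Combination, or above 0.24, 0.29 or 0.18 in the same order.

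**Figure D3:**
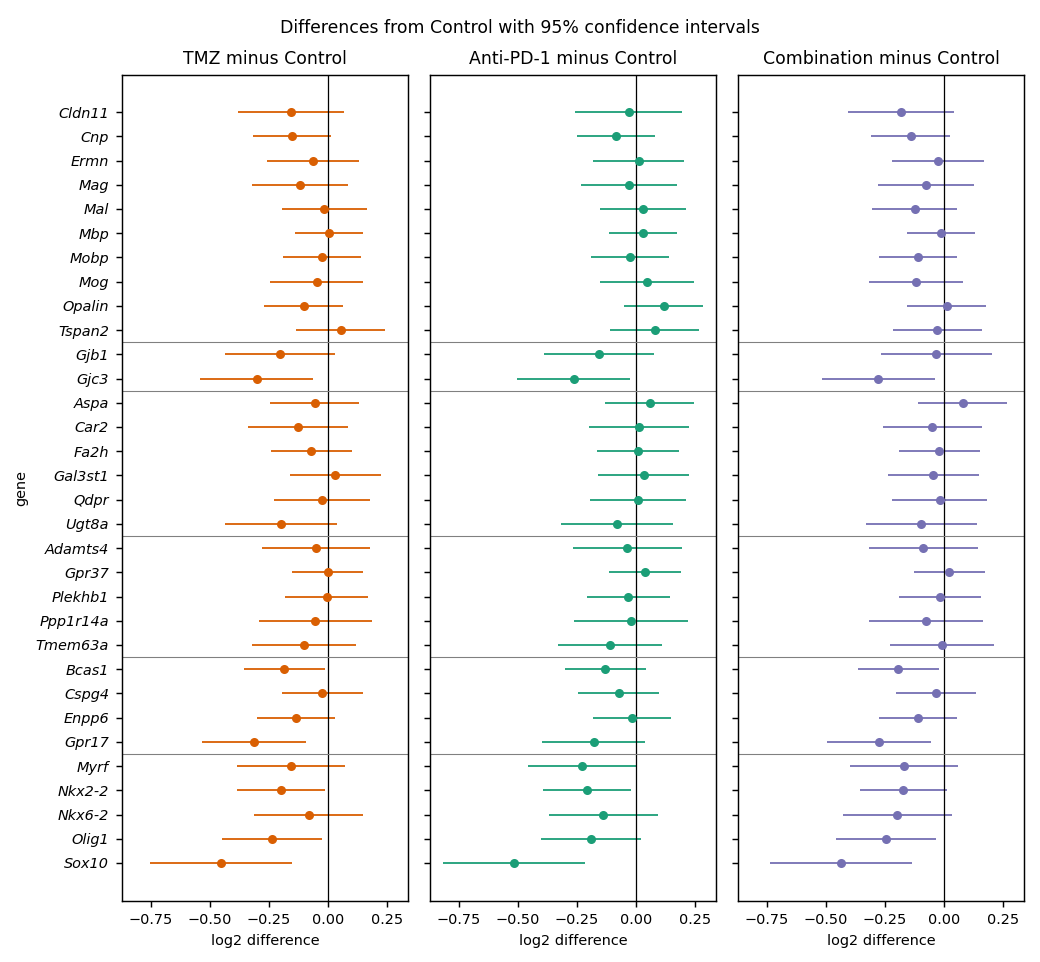
Log2 difference from Control (points) with 95% confidence intervals (lines) from limma for the 32 genes, in panels for TMZ, Anti-PD-1 and Combination, grouped by role as in the plot of signal by array. Most intervals cross 0, and Sox10 lies farthest to the left in each panel, at -0.45, -0.52 and -0.44.

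Opalin, a membrane glycoprotein of oligodendrocytes, was the one gene of the 32 whose Anti-PD-1 arrays all lay above Control, where 10.3% of all genes did so. It had 7.27, 6.97 and 7.05 log2 in TMZ, 7.30, 7.31 and 7.34 in Anti-PD-1, 7.24, 7.14 and 7.25 in Combination, and 7.26, 7.14 and 7.20 in Control. The Anti-PD-1 arrays were tight and the highest of all, and TMZ replicates 2 and 3 the lowest. Opalin was 0.12 ± 0.08 higher in Anti-PD-1 than in Control (SE; limma adjusted p = 0.538), a value that missed the threshold.

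The lipid and metabolic enzymes had no gene at an unadjusted limma p under 0.05 in any treated group. Ugt8a, which makes galactosylceramide, Fa2h, which hydroxylates myelin fatty acids, Gal3st1, which makes sulfatide, Aspa, which cleaves N-acetylaspartate, the carbonic anhydrase Car2 and the dihydropteridine reductase Qdpr had differences from -0.20 to 0.03 in TMZ. They lay between -0.08 and 0.06 in Anti-PD-1 and between -0.10 and 0.08 in Combination. Ugt8a had 9.59, 9.04 and 9.34 log2 in TMZ, 9.42, 9.47 and 9.44 in Anti-PD-1, 9.49, 9.40 and 9.39 in Combination, and 9.56, 9.47 and 9.52 in Control. Its TMZ arrays spanned the whole range, and all 3 Anti-PD-1 arrays lay just below Control, as did those of Sox10 and Nkx2-2. Ugt8a differed by -0.20 ± 0.11 in TMZ, -0.08 ± 0.11 in Anti-PD-1 and -0.10 ± 0.11 in Combination (SE; limma adjusted p = 0.529, 0.799 and 0.777). Car2, which is also made in choroid plexus, had 9.83, 9.44 and 9.54 log2 in TMZ, 9.68, 9.73 and 9.81 in Anti-PD-1, 9.78, 9.60 and 9.65 in Combination, and 9.81, 9.73 and 9.64 in Control, so the groups overlapped. Beside it Ttr, the transthyretin gene that marks choroid plexus, was at 0.04 in TMZ, -0.14 in Anti-PD-1 and 0.06 in Combination, and 0 of 10 measured choroid plexus markers passed limma in any of them. At an unadjusted p under 0.05 there were 1, 1 and 0 of them in the same order. Those with the smallest p were Aqp1 (-0.27) and Calml4 (0.18) in TMZ, Kl (-0.30) and Aqp1 (-0.17) in Anti-PD-1, and Sostdc1 (0.22) and Otx2 (-0.10) in Combination. Against Control replicate 3 alone, 4, 6 and 4 of the 10 choroid plexus markers were lower in the same order.

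The 5 other genes of mature cells were Gpr37, a receptor that restrains differentiation, Plekhb1, Ppp1r14a, an inhibitor of myosin phosphatase, the ion channel Tmem63a and the protease Adamts4. They differed by -0.10 to 0.00 in TMZ, by -0.11 to 0.04 in Anti-PD-1 and by -0.09 to 0.02 in Combination. Gpr37, with an SD of 0.065 over all arrays, had 8.83, 8.63 and 8.70 log2 in TMZ, 8.79, 8.72 and 8.76 in Anti-PD-1, 8.81, 8.71 and 8.71 in Combination, and 8.76, 8.77 and 8.63 in Control. The 4 groups overlapped, with the TMZ arrays spread widest. At the other end, Sox10 and Gjc3 had SDs of 0.27 and 0.18, and 21 of the 32 genes varied less than the median gene.

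Promoter letters are shown for 2 structural myelin genes, Mobp and Cnp, and for 2 genes that were lower at an unadjusted limma p under 0.05 in TMZ and Anti-PD-1, Gjc3 and Nkx2-2, because Sox10 and Myrf act on myelin promoters. RefSeq promoter sequences (build GRCm38.p6) were found for 23 of the 32 genes and not for Olig1, Fa2h, Mbp, Bcas1, Sox10, Myrf, Gpr17, Car2 and Adamts4. The 250 bases before each start were searched on both strands for 4 sets of letters. ACAAAG and ACAATG are forms of the SOX factor motif, CTGGCAC is a Myrf motif, and CAGCTG is an E-box read alike on both strands. ACAAAG and ACAATG share their first letters and were counted separately. Windows of 4 genes are printed 5′ to 3′ on the gene's strand, with matched letters in capitals (CTTTGT is ACAAAG on the other strand): Mobp, chr9:120149492-120149741 (plus strand), Cnp, chr11:100574689-100574938 (plus strand), Gjc3, chr5:137963099-137963348 (minus strand) and Nkx2-2, chr2:147186403-147186652 (minus strand).
Mobp: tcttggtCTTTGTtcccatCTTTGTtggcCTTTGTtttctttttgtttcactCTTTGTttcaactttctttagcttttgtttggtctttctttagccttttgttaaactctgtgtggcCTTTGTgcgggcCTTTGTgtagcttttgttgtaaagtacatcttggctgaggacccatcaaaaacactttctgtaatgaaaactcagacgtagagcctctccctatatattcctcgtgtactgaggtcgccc
Cnp: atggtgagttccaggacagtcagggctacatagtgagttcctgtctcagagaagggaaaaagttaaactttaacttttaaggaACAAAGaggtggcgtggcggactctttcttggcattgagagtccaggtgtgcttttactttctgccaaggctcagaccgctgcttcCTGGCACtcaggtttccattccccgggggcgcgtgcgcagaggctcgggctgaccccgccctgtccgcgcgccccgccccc
Gjc3: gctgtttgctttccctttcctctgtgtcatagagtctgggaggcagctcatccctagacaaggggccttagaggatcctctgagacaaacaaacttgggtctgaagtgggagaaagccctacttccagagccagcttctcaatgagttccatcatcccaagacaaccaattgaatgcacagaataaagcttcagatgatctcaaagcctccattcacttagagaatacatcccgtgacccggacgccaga
Nkx2-2: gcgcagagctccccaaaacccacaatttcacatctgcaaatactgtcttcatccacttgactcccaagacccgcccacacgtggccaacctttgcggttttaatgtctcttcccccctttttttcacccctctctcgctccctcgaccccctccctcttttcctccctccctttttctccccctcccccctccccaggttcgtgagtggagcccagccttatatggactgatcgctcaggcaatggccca

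ACAAAG was present in 8 of the 23 genes, against 18.6% of the 27025 genes with a promoter in the table. ACAATG was present in 4 of 23 (12.2% of all genes), CTGGCAC in 2 of 23, Cnp and Mag (4.83% of all genes), and CAGCTG in 1 of 23, Aspa (14.7% of all genes). The Mobp window held 6 copies of ACAAAG, all read as CTTTGT, more than any other of the 32851 windows, of which 1.74% held at least 2. Cnp held 1 ACAAAG and 1 CTGGCAC. The windows of Gjc3 and Nkx2-2, which were lower at an unadjusted limma p under 0.05 in TMZ and Anti-PD-1, held none of these letters. Neither did those of Mal, Mog and Ugt8a, which did not reach that p against Control. Sox10, Gpr17, Olig1 and Bcas1, also lower at that p in TMZ, had no window to read. Mobp, whose window is richest in the SOX letters, differed from Control by -0.03 in TMZ, -0.02 in Anti-PD-1 and -0.11 in Combination. These matches describe letters in a window and say nothing of binding, and any relation to the differences from Control was not tested.

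Between the treated groups, all log2 differences of the set lay between -0.22 and 0.17. Of the 32 genes, 17 were higher and 15 lower in Combination than in TMZ (48.8% of all genes were higher), with a median of 0.01, and 0 had an unadjusted limma p under 0.05 (4.19% of all genes did). In Combination against Anti-PD-1, 24 were lower (52.2% of all genes) with a median of -0.05, and 0 reached that p, against 4.91% of all genes. Mal, Opalin, Gpr17 and Bcas1 were lower in all 3 Combination arrays than in all 3 Anti-PD-1 arrays, where 5.67% of all genes were. In TMZ against Anti-PD-1, 25 were lower (50.5% of all genes) with a median of -0.04. Opalin was the one gene at an unadjusted p under 0.05 there, at -0.22 ± 0.08 (SE; limma adjusted p = 1), where 4.51% of all genes reached that p. All 3 TMZ arrays of Opalin lay below all 3 Anti-PD-1 arrays, as in 4.39% of all genes.

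The interaction asks whether Combination departs from the sum of the separate differences of TMZ and Anti-PD-1 from Control. It was above 0 for 21 of the 32 genes and for 46.2% of all genes, with a median of 0.04. Sox10 had the largest value, 0.53 ± 0.19 (SE; limma adjusted p = 0.443), and was the one gene at an unadjusted p under 0.05, which 8.92% of all genes reached. The interaction takes Control into account with both single agents, so it also rests on the high Control arrays: for Sox10 it was 0.17 with Control replicate 3 alone. For Mbp the interaction was -0.05 ± 0.09 (SE).

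Other oligodendrocyte genes were read from a wider list of 45 mature and 30 progenitor or committed genes. Of the mature genes, 30 were lower in TMZ, 29 in Anti-PD-1 and 34 in Combination, with medians of -0.08, -0.04 and -0.07, and 0 passed the threshold. At an unadjusted limma p under 0.05 the mature genes had 4, 5 and 4 lower ones in the same order. Erbb3, a neuregulin receptor, had the smallest p of the mature list in each comparison. It had 6.98, 6.59 and 6.66 log2 in TMZ, 6.59, 6.85 and 6.88 in Anti-PD-1, 7.03, 7.02 and 6.80 in Combination, and 7.86, 8.19 and 7.11 in Control. Like Sox10, Erbb3 was lower in all 9 treated arrays than in the 3 Control arrays, with Control replicate 3 near the treated ones. Against that array alone Erbb3 was at -0.36 in TMZ, -0.33 in Anti-PD-1 and -0.16 in Combination, and of the 45 mature genes 21, 16 and 16 were lower. It differed by -0.97 ± 0.22 in TMZ, -0.94 ± 0.22 in Anti-PD-1 and -0.77 ± 0.22 in Combination (SE; limma adjusted p = 0.133, 0.0938 and 0.223).

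Gamt, which makes creatine, was at -0.33 ± 0.09 in TMZ (SE; limma adjusted p = 0.215), -0.13 in Anti-PD-1 and -0.15 in Combination. The junction protein Jam3 was at -0.20 ± 0.07 in Anti-PD-1 (SE; limma adjusted p = 0.220), -0.19 in TMZ and -0.07 in Combination. Tmem125 was at -0.27 ± 0.09 in Combination (SE; limma adjusted p = 0.286), -0.19 in TMZ and -0.04 in Anti-PD-1. The progenitor list did not lean one way: 15 of 30 were lower in TMZ, 14 in Anti-PD-1 and 14 in Combination, with medians of 0.01, 0.01 and 0.00, and 0 passed limma. At an unadjusted p under 0.05 it had 2 higher and 5 lower genes in TMZ, 1 and 4 in Anti-PD-1, and 3 and 2 in Combination. Rlbp1, a retinoid carrier, was at -0.59 ± 0.13 in TMZ (SE; limma adjusted p = 0.13), -0.34 in Anti-PD-1 and -0.31 in Combination. Sox6, a factor that keeps progenitors immature, was at -0.36 ± 0.10 in TMZ (SE; limma adjusted p = 0.228). It was at -0.30 ± 0.10 in Anti-PD-1 (limma adjusted p = 0.219) and -0.20 in Combination. Pcdh15, a protocadherin of progenitors, was 0.28 ± 0.07 higher in Anti-PD-1 (SE; limma adjusted p = 0.105). It was 0.19 ± 0.07 higher in Combination (limma adjusted p = 0.326) and 0.24 higher in TMZ. Lhfpl3 was 0.21 ± 0.07 higher in Combination (SE; limma adjusted p = 0.296), 0.20 higher in TMZ and 0.13 higher in Anti-PD-1. Against Control replicate 3 alone, 12, 12 and 13 of the 30 progenitor or committed genes were lower in TMZ, Anti-PD-1 and Combination. The medians there were 0.01, 0.01 and 0.02.

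Markers of other cells differed between the same arrays. The 13 measured mitosis genes were lower in all treated groups, 13 of 13 in each, all at an unadjusted limma p under 0.05. Past the threshold were 3 in TMZ (Ccna2, Hmmr and Ect2), 7 in Anti-PD-1 (these and Mki67, Top2a, Kif20a and Cenpe) and 0 in Combination, where Ect2 was at -1.28 and Hmmr at -0.74. Ect2, needed for the separation of daughter cells, fell by 1.25 on the log2 scale in TMZ (limma adjusted p = 0.0461). These calls were unstable to single arrays. In TMZ none was left when any 1 array other than Control replicate 3 was omitted, and in Anti-PD-1 none was left without Control replicate 1, Control replicate 2 or any 1 of the Anti-PD-1 arrays. Without Control replicate 3 there were 11 for TMZ, 12 for Anti-PD-1 and 11 for Combination. With Control replicate 3 as the one Control array, 13 of 13 were lower in each treated group, and Ect2 was at -0.72, -0.86 and -0.76. The mitosis list deviated by -0.04, -0.36 and -0.26 in TMZ, -0.36, -0.22 and -0.26 in Anti-PD-1, -0.20, -0.14 and -0.19 in Combination, and 0.79, 0.94 and 0.29 in Control. Control replicates 1 and 2 were thus the highest arrays for mitosis genes as for the transcription factors, Sox10 and Erbb3. The 18 neuron markers deviated by -0.01, 0.02 and 0.03 in TMZ, 0.02, 0.07 and 0.05 in Anti-PD-1, 0.05, -0.04 and -0.02 in Combination, and -0.07, -0.10 and 0.00 in Control. The same 2 Control arrays were the lowest for neuron markers, and 0 of 18 passed limma. At an unadjusted p under 0.05, with no share of all genes beside it, 3, 2 and 1 neuron markers were higher in TMZ, Anti-PD-1 and Combination. Snhg11, a neuronal noncoding RNA, had the smallest p of them in each comparison, at 0.31, 0.39 and 0.35. Next were Slc17a6 in TMZ (0.33) and Grin2b in Anti-PD-1 and Combination (0.19 and 0.17), both of glutamate signalling. Against Control replicate 3 alone, 8, 12 and 8 of the 18 neuron markers were higher and 10, 6 and 10 lower in TMZ, Anti-PD-1 and Combination. The medians there were -0.02, 0.05 and -0.01. With the neuron deviation as a covariate, Sox10 was at -0.24 ± 0.15 in TMZ, -0.20 ± 0.18 in Anti-PD-1 and -0.28 ± 0.14 in Combination (SE). The neuron deviation was lowest on the same Control arrays that were highest for Sox10, so that fit cannot separate it from the groups. The part of dividing cells or of brain tissue share in the Sox10 difference was not tested.

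**Figure D4:**
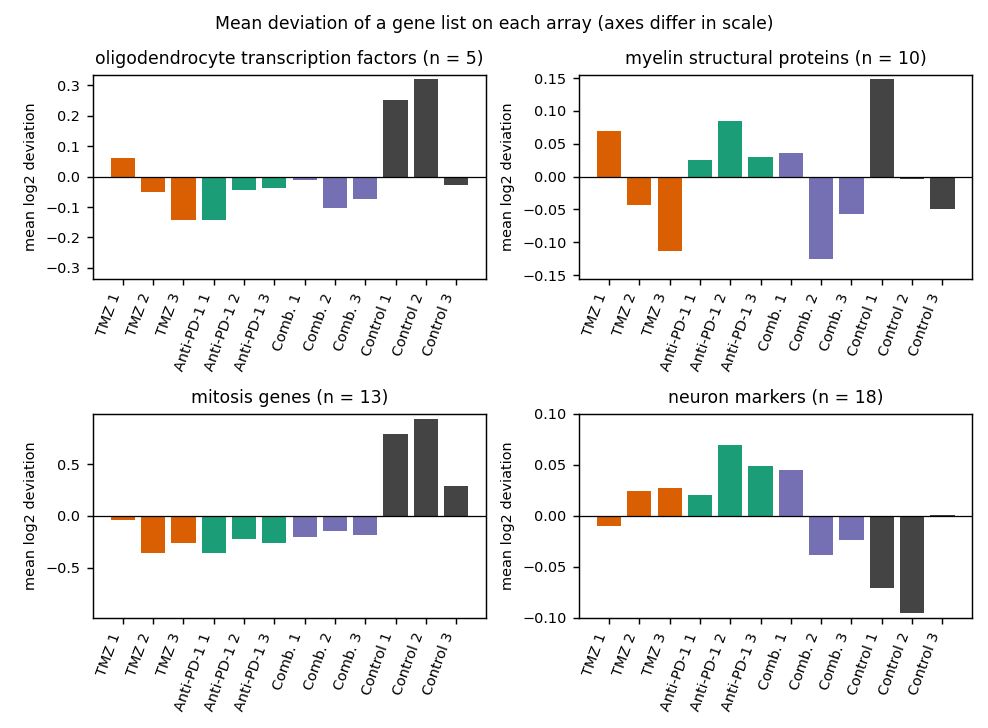
Mean log2 deviation from the mean over 12 arrays for 4 gene lists, one bar per array in the order TMZ, Anti-PD-1, Combination and Control, with axes that differ in scale. Control replicates 1 and 2 are highest for the transcription factors (0.25 and 0.32) and the mitosis genes (0.79 and 0.94) and lowest for the neuron markers (-0.07 and -0.10).

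Single treated arrays also stood apart. TMZ replicate 2 was the lowest of the 12 arrays for 17 of the 32 genes and for 9.86% of all genes, and TMZ replicate 1 was the highest for 10 of the 32 and for 7.53% of all genes. For Ugt8a, TMZ replicate 2 was at 9.04 log2, 0.30 below the next lowest array. For Gjb1 and Gpr17 it lay 0.25 and 0.21 below the next. The 14 endothelium and pericyte markers deviated by 0.40 on TMZ replicate 2, above all other arrays, and by -0.14, -0.09 and -0.20 in Control, below all others. The microglia markers deviated by -0.23 on TMZ replicate 2, below all others. Of the endothelium and pericyte markers, 13 were higher in TMZ, 12 in Anti-PD-1 and 12 in Combination. At an unadjusted limma p under 0.05, 8, 5 and 4 of these markers were higher, with no share of all genes beside it, and 0, 0 and 1 lower. Set against Control replicate 3 alone, 14, 14 and 13 were higher. Atp13a5, a pericyte gene, was the one marker of its list that passed in TMZ and in Anti-PD-1, higher by 0.50 ± 0.06 and 0.42 ± 0.06 (SE; limma adjusted p = 0.0277 and 0.0309). In Combination it was at 0.45 ± 0.06 and missed it (SE; limma adjusted p = 0.0639), and Rgs5, another pericyte gene, was at 0.34 in TMZ, 0.34 in Anti-PD-1 and 0.27 in Combination. The Atp13a5 call was lost in TMZ without Control replicate 1 or 2, any 1 TMZ array, Anti-PD-1 replicate 2, or Combination replicate 1 or 3. In Anti-PD-1 it was lost without Control replicate 1 or 2 or any 1 Anti-PD-1 or Combination array. The differences from Control replicate 3 alone were 0.49, 0.41 and 0.44 for TMZ, Anti-PD-1 and Combination, each resting on that single Control array. On TMZ replicate 2 the 10 structural myelin genes deviated by -0.04, and the lipid and metabolic enzymes by -0.20. Whether the makeup of that array bears on the 17 genes lowest there was not tested. The 3 measured Schwann cell markers, Egr2, Pmp2 and Ncmap, had 0 past the threshold in limma and 1 at an unadjusted p under 0.05, Egr2 in Anti-PD-1 at -0.36. Against Control replicate 3 alone, 3, 3 and 2 of these markers were lower in TMZ, Anti-PD-1 and Combination.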

How the data were processed

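Total RNA from tumour masses was hybridised to 12 Affymetrix whole-transcript mouse arrays. Per the submitters' processing notes, the deposited log2 signals are the authors' RMA output from Affymetrix Expression Console, whose version is not given in the sources used here. RMA corrects background, quantile normalises arrays jointly and summarises probes, which evens out differences in overall signal. The table held 41345 probe sets, of which 23521 carried 1 gene symbol, 1814 carried several and 16010 were not listed in the annotation; only those with 1 symbol were named. Where a gene had several such probe sets, the one with the highest mean was kept, leaving 22180 genes. Group means were fitted to all 12 arrays with limma 3.58.1 in R 4.3.3 (8 residual degrees of freedom, prior 3.63), two-sided, with Benjamini-Hochberg adjustment over all genes and a threshold of 0.05. The fit was tested on simulated data. The gene set and the lists were chosen with earlier results of these data known. Values in every array are given for 12 genes chosen for their stage, for the 3 smallest p in each comparison with Control, and for the 2 highest and 2 lowest SDs; other lists give counts and name the genes past the threshold or, where none passed, those with the 2 smallest p. The number of arrays limits the precision. Opalin, Car2, Ugt8a, Gjb1 and the array values of Erbb3 were singled out after their values were seen.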

Additional observations from a re-analysis of the deposited data

How the results depend on the processing

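The comparisons were repeated under 12 other settings and with each of the 12 arrays left out. The count of oligodendrocyte and myelin genes past the threshold stayed at 0, except for 1, Sox10, with a variance trend in Anti-PD-1 against Control (limma adjusted p = 0.0409) and without Control replicate 3. Leaving out 1 array gave counts of 0 to 1 in TMZ, Anti-PD-1 and Combination against Control, in the interaction and in the F test, and 0 elsewhere. The median difference then ranged from -0.17 to -0.0575 in TMZ, from -0.08 to 0.01 in Anti-PD-1 and from -0.14 to -0.05 in Combination. It ranged from -0.03 to 0.08 in Combination against TMZ, from -0.08 to -0.01 in Combination against Anti-PD-1, from -0.12 to -0.01 in TMZ against Anti-PD-1 and from 0.00 to 0.11 in the interaction. Without Control replicates 1 and 2, a setting chosen after seeing the data, the median was 0.0129 in TMZ, 0.0547 in Anti-PD-1 and 0.015 in Combination against Control.

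The count over all genes depended more on the setting. In TMZ against Control it was 22, and 113 with a variance trend, 14 with a robust prior, 14 without dim genes, 9 after renewed quantile normalisation, 1 with all probe sets, 4 with the replicate block, and 0 with only the groups compared or with the neuron covariate. In Anti-PD-1 against Control it was 65, and 381, 33, 205, 2, 20, 0 and 0 with the trend, robust prior, no dim genes, all probe sets, replicate block, only the groups compared and neuron covariate. In Combination against Control it was 0, and 42 with the trend and 3 without dim genes. Leaving out 1 array gave 0 to 363 in TMZ, 1 to 686 in Anti-PD-1 and 0 to 282 in Combination, each time highest without Control replicate 3. In the interaction 1 gene passed, and 12 with the trend; in the F test 1 passed, and 90 with the trend and 5 with the replicate block. The causes were not tested. The replicate numbers gave no clear sign of pairing of the arrays, though overlapping ranges of correlation cannot exclude it. Same-numbered arrays correlated at -0.16 to 0.16 (median -0.01) and different-numbered ones at -0.27 to 0.20 (median 0.00). These are not the correlations of the signals over all probe sets given earlier. The block left the count of oligodendrocyte and myelin genes past the threshold at 0. With 3 arrays a group, differences of the size seen here are near the spread between arrays.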

Other observations

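The glial lists outside the lineage leaned in different ways. All 11 measured microglia markers were lower in TMZ and in Anti-PD-1 than in Control, and 8 of 11 in Combination, where 47.9%, 47.6% and 49.8% of all genes were lower, with median log2 differences of -0.24, -0.13 and -0.10, and 0 passed limma at the threshold. At an unadjusted p under 0.05, 7, 4 and 3 of them were lower in the same order. Their mean deviation was 0.19, 0.18 and 0.03 in Control, and the third value lay within the treated range of -0.23 to 0.06. Against Control replicate 3 alone, 9, 7 and 6 were lower, with medians of -0.12, -0.10 and -0.03. The matrix gene Olfml3, a microglia marker, had 6.88, 6.65 and 6.80 log2 in TMZ, 6.64, 6.74 and 6.82 in Anti-PD-1, 6.85, 6.80 and 6.91 in Combination, and 7.31, 7.17 and 7.02 in Control. Its treated arrays all lay below Control, at differences of -0.39 ± 0.09 in TMZ, -0.43 ± 0.09 in Anti-PD-1 and -0.31 ± 0.09 in Combination (SE; limma adjusted p = 0.133, 0.0631 and 0.223). Of 15 astrocyte markers, 10 were higher in TMZ, 6 in Anti-PD-1 and 9 in Combination, and 0 passed limma. At an unadjusted p under 0.05 there were 2 higher and 2 lower in TMZ, 1 and 2 in Anti-PD-1, and 2 and 1 in Combination. Gfap, the intermediate filament of reactive astrocytes, was at -0.49 ± 0.15 in TMZ, -0.59 ± 0.15 in Anti-PD-1 and -0.40 ± 0.15 in Combination (SE; limma adjusted p = 0.274, 0.125 and 0.361). From Control replicate 3 alone Gfap differed by -0.32, -0.41 and -0.22, and 11, 9 and 12 of the 15 astrocyte markers were higher. The connexin gene Gjb6 was at 0.24 in TMZ, the folate enzyme gene Aldh1l1 at -0.24 in Anti-PD-1 and the glutamate transporter gene Slc1a2 at 0.16 in Combination. The next microglia markers by p were Fcrls at -0.40 in TMZ, and Crybb1 at -0.47 in Anti-PD-1 and -0.30 in Combination.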
